A study of Mus musculus with 6 samples.

Results

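Histone genes were examined in E14 cells, an established line of mouse embryonic stem cells, with and without knockdown of Nat10, the enzyme that writes N4-acetylcytidine on RNA. The members are genes named Hist1 to Hist4, H2af or H3f3 in the older mouse nomenclature, plus H1f0 and H1fx. The deposited table mostly carries the current symbols, so that the naming rule read literally found 15 of its 31641 genes; applied also to the GENCODE M21 symbol of each gene identifier, it found 77. Of these, 61 were replication-dependent histone genes (the Hist names) and 16 were variant histone genes and their pseudogene or antisense relatives. RNA was sequenced from 3 CON libraries (Nat10 wild type, without Dox, the antibiotic inducer doxycycline) and 3 KD libraries (Nat10 knockdown, with Dox), all from the same line. Every KD library had also received Dox, so the knockdown and the antibiotic cannot be told apart. The knockdown construct, the number of clones, the length of treatment and whether the 3 libraries of a group came from separate cultures were not given in the sources used here, so that the p-values measure the spread between these libraries, which may be technical.

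Replication-dependent histone genes encode the bulk H1, H2A, H2B, H3 and H4 proteins that package newly copied DNA, and they lie mostly in clusters. Their messenger RNAs accumulate in S phase and normally end not in a poly(A) tail but just after a short stem-loop, which is bound by Slbp and cut with the help of the U7 small nuclear ribonucleoprotein. Variant histones such as H2A.Z, H3.3, macroH2A and H1.0 are encoded by genes that stand alone, most of them with ordinary polyadenylated messages, and are deposited by dedicated chaperones outside replication. The libraries here were made from RNA caught on poly-T beads, so a replication-dependent value counts only the messages that carried an A-rich stretch.

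The 2 classes differed at the annotated 3′ end, which is shown because it bears on what the beads could catch. The 16-base histone stem-loop was searched for on the sense strand of every annotated transcript, and it was found in 42 of the 61 replication-dependent members, in 1 of the 16 variants and in 55 of all 55450 annotated genes. Among the 42, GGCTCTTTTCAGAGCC was the form in 23, while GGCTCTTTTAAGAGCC and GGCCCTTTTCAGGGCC were each found in 6. The elements of the members described further on follow with 5 flanking bases on each side, read from GRCm38 (mm10), with the stem-loop in capitals.
H2bc12 (Hist1h2bk, chr13:22036295-22036320, + strand): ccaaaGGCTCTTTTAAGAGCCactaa
H3c1 (Hist1h3a, chr13:23761885-23761910, - strand): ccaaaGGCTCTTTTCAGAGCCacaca
H1f4 (Hist1h1e, chr13:23621777-23621802, - strand): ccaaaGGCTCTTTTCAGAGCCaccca
H1f2 (Hist1h1c, chr13:23739507-23739532, + strand): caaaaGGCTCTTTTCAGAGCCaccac
H4c9 (Hist1h4i, chr13:22040961-22040986, - strand): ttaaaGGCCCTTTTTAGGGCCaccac
H2ax (H2afx, chr9:44335235-44335260, + strand): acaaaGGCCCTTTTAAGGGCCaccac

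H2ax, which encodes the H2A form phosphorylated at DNA breaks, was the only variant with the element, 822 bases before the end of its annotated transcript. In H2bc12 and H3c1 the element lay 30 and 37 bases from the annotated end, within the 100 bases that held for 20 members in all. In H1f2, H4c9 and H1f4 the annotated transcript went on for 840, 330 and 1153 bases beyond it.

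A poly(A) signal, AATAAA or ATTAAA in the last 50 bases of an annotated transcript, was present in 15 replication-dependent members, 13 of which also had the stem-loop, and in 10 variants. Some of these ends follow with the signal in capitals, to set beside the stem-loops; the first 3 belong to abundant variants and the last 3 to replication-dependent genes.
H2az1 (H2afz, chr3:137866789-137866818, + strand): ggtggataagctcAATAAAggtcatatccc
H1f0 (chr15:79030475-79030504, + strand): aactttaaAATAAAactggaaaggaaaaaa
H3f3a (chr1:180800832-180800861, - strand): tgaaaaatAATAAAagtaccaatagaagaa
H1f2 (Hist1h1c, chr13:23740338-23740367, + strand): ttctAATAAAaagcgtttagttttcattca
H4c9 (Hist1h4i, chr13:22040636-22040665, - strand): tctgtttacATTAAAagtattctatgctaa
H2bc21 (Hist2h2be, chr3:96223709-96223738, + strand): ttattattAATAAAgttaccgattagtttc

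H1f2 and H4c9 thus carried both ends, and H2bc21 a poly(A) signal with no stem-loop found. H2bc4 (Hist1h2bc, chr13:23684199-23692908), the replication-dependent member with most reads, had neither in its annotated transcripts.

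The promoters of the classes were described by 3 motifs, with no test of a difference, searched on both strands of the RefSeq windows (GRCm38.p6) from 250 bases before to 50 after each start, with 48 promoters of 47 replication-dependent genes and 11 of variant genes matched. TATAAA was in 58.33% of replication-dependent promoters, 9.09% of variant ones and 13.62% of all 32851. CCAAT was in 85.42%, 63.64% and 37.41%; within the replication-dependent class it was in every H1, H2A, H2B and H3 promoter and in 3 of 10 H4 promoters, 30.0%. The octamer ATTTGCAT was in 25.0% of replication-dependent promoters, 9.09% of variant ones (1 of 11) and 1.74% of all, and by replication-dependent family it was in 7 of 12 H2A and 5 of 12 H2B promoters and in none of the H1, H3 and H4 windows. The window of H2bc12 holds all 3, and that of H2az1 holds 3 copies of CCAAT and neither of the others. The H2bc12 window starts beside H2ac12 (chr13:22035164-22035568, - strand), so its motifs cannot be assigned to 1 of these 2 genes. A window between such genes can count for both. The H2bc12 and H2az1 windows are shown with the motifs in capitals (TATAAA and some CCAAT copies lie on the other strand and read TTTATA and ATTGG).
H2bc12 (chr13:22035571-22035870, + strand): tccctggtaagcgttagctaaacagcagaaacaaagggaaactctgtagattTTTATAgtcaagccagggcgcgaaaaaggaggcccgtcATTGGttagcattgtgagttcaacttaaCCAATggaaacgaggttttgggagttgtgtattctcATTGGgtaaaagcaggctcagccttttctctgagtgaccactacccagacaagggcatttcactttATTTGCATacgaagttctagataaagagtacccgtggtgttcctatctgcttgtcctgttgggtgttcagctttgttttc
H2az1 (chr3:137864237-137864536, + strand): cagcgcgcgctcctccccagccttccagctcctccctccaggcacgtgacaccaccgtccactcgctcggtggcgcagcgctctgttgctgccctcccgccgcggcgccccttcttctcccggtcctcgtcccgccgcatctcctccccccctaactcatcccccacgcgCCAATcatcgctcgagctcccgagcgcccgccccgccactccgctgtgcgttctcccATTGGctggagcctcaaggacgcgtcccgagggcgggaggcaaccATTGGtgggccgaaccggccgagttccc

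Library totals ran from 33770755 to 39524273 counts. Levels are given as CPM, library-scaled counts adjusted by edgeR's TMM factors, on which 1 count was worth 0.0233 to 0.0307 CPM; levels of different genes are compared per kilobase of gene length. Nat10 measured 145, 151 and 150 CPM in CON and 26.2, 27.2 and 28.7 in KD, 5.44-fold lower (log2 fold change -2.44 ± 0.054 SE, adjusted p = 4.22e-14 by edgeR's quasi-likelihood test, Benjamini-Hochberg over all genes), which matches the labels. Over all 18019 genes tested, 30.8% were lower and 32.2% higher in KD at an adjusted p under 0.05, 63% in all, so that a call by itself is common here. Scaling by library totals alone, without TMM, moved the median log2 fold change of all genes from 0.02 to 0.25 and the calls to 8275 higher and 3535 lower. The KD replicate 3 library differed from the other 2 KD libraries along GC content, with a median log2 difference of 0.174 in the tenth of genes with least GC and -0.236 in the tenth with most.

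In CON, the 16 variant members ranged from 0.114 to 461 CPM per kilobase with a median of 21.4, and the 61 replication-dependent members from 0.00414 to 6.84 with a median of 0.278. The 10 variants at 5 CPM or more, from 16.1 upward with a median of 81.3, lay above every replication-dependent gene, while the other 6 variants, all but H2ab3 annotated as pseudogenes or antisense RNA, lay within the replication-dependent range. Among the replication-dependent genes the medians were 0.241 for the 13 with both ends, 0.278 for the 29 with the stem-loop and no poly(A) signal and 0.389 for the 17 with neither. The highest members of these sets were H1f2 at 2.03, H2bc12 at 2.08 and H2bc4 at 6.84 CPM per kilobase. Among the members with the stem-loop, those with an annotated poly(A) signal did not have the higher median. The set with neither cannot be compared in this way. Several of its annotated transcripts are short, such as 312 bases in H4c12 and 411 in H3c10, and may leave out the 3′ end that would hold either element. These are levels in poly(A)-selected RNA and do not rank the genes by total message.

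**Figure D1:**
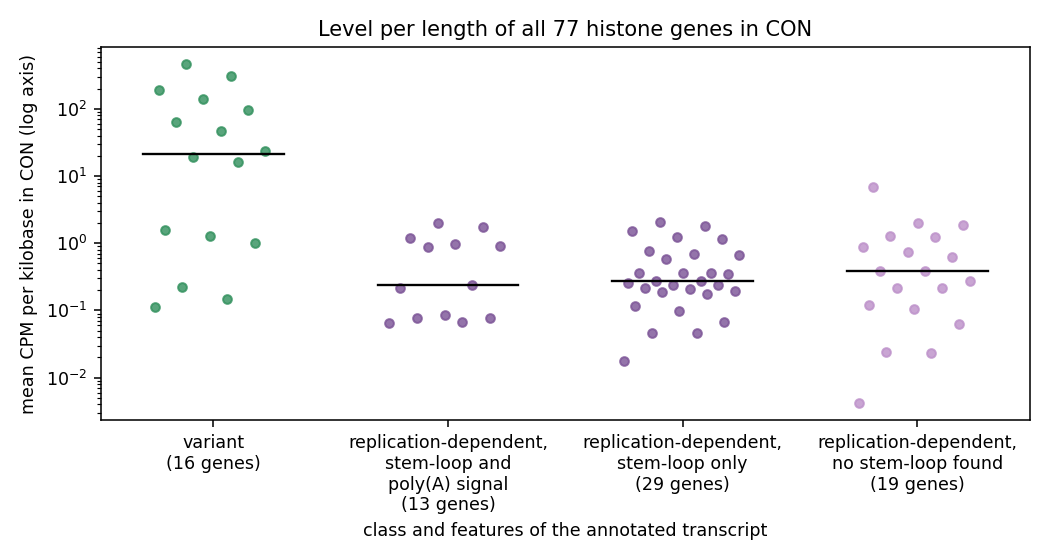
Mean CPM per kilobase in the 3 CON libraries (log axis) of each of the 77 histone genes, 1 point per gene, by class and by the ends found in the annotated transcript; black bars are medians and the last column joins the 17 genes with neither end and the 2 with a poly(A) signal alone. The 10 abundant variants lie above every replication-dependent gene, the other 6 variants lie among them, and the 3 replication-dependent columns overlap.

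Reads on histone genes were fewer in KD in both classes. Summed over all 16 variant members, the level was 3020, 3080 and 3120 CPM in CON and 1800, 1760 and 1700 in KD. The means were 3070 ± 48.7 and 1750 ± 52.2 (SD, n = 3), 1.75-fold lower in KD. Summed over all 61 replication-dependent members, the level was 32.1, 30.6 and 30.9 CPM in CON and 19.6, 21.7 and 19.0 in KD. The means were 31.2 ± 0.789 and 20.1 ± 1.41 (SD, n = 3), 1.55-fold lower. In both sums every KD library lay below every CON library, and the gap between groups was several times the spread within them. On library totals alone the KD sums stayed below, by 1.49-fold for the variants and 1.32-fold for the replication-dependent genes. Replication-dependent genes held 1.05, 0.984 and 0.981% of the reads on histone genes in CON and 1.08, 1.21 and 1.11% in KD. In these bulk samples, fewer cells of a type (such as cells in S phase) and less RNA per cell cannot be told apart.

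**Figure D2:**
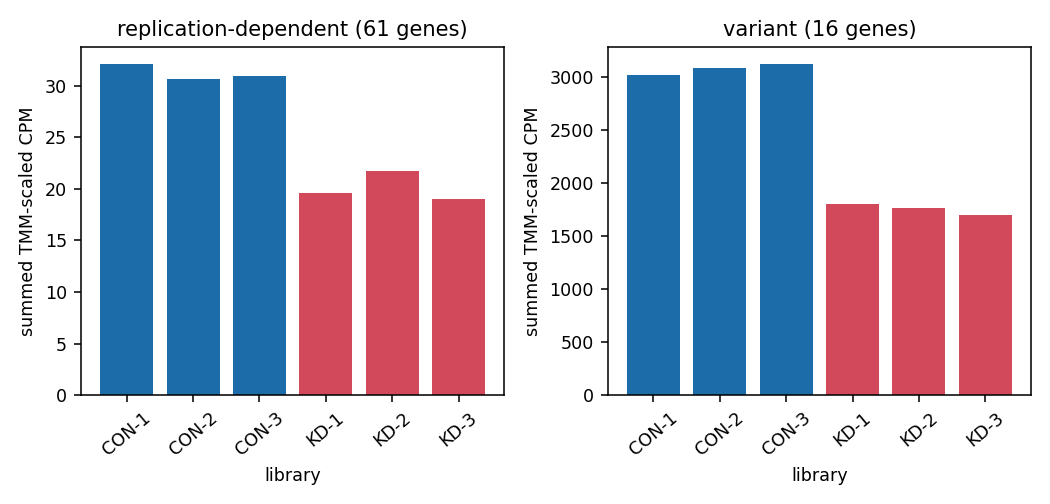
Summed TMM-scaled CPM over the 61 replication-dependent and the 16 variant histone genes in each library, CON in blue and KD in red, on separate axes that start at 0. The KD bars are lower in both panels, at 19.0 to 21.7 against 30.6 to 32.1 CPM and at 1700 to 1800 against 3020 to 3120 CPM.

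Of the variant members, 14 of 16 passed the filter on low counts and 9 were called lower in KD, none higher. Of all genes tested, 30.8% were called lower. All 9 are among the 10 at 5 CPM or more, and in all 10 every KD library lay below every CON library, an order that 32.8% of all genes tested show. The variants are taken below by histone type. The 9 that were called ran from 1.30-fold to 2.29-fold lower. On library totals 7 of the 10 were lower and 1, Macroh2a1, was higher, beside 3535 lower and 8275 higher of all 18019 genes.

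The H2A.Z pair differed most. H2az1 (H2afz, chr3:137864487-137866922), which encodes H2A.Z.1, the H2A variant found around transcription start sites, measured 782, 847 and 827 CPM in CON and 366, 366 and 342 in KD. KD libraries were all less than any CON library and the fold was 2.29-fold lower (log2 fold change -1.19 ± 0.045 SE, adjusted p = 6.16e-12 by edgeR). Its paralog H2az2 (H2afv, chr11:6427229-6444443), which encodes H2A.Z.2, measured 147, 160 and 173 CPM in CON and 133, 127 and 110 in KD. These groups were close together without overlapping, at 1.30-fold lower (edgeR adjusted p = 2.14e-04); the call was lost on library totals (log2 fold change -0.15, adjusted p = 0.0705) and after removal of a GC trend (-0.34, adjusted p = 0.0599). Per kilobase, the ratio of H2az1 to H2az2 was 4.9, 4.88 and 4.4 in CON and 2.54, 2.66 and 2.86 in KD, with no overlap and a shift larger than the spread. An exact two-sided permutation test gave p = 0.1, the smallest that 3 against 3 libraries allow (0.2 after Benjamini-Hochberg adjustment over the 4 ratios tested among variants). In H2az1, 25.69% of the 100-base windows of its transcripts also occur in a transcript of another gene, and in H2az2 none do; how reads that map to several places were counted was not given in the sources used here.

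Of the other H2A variants, H2ax (H2afx, chr9:44334694-44336077), which marks DNA breaks, measured 248, 268 and 265 CPM in CON and 150, 141 and 117 in KD. The KD values were all lower, with KD replicate 3 the lowest, and the difference was 1.91-fold (log2 fold change -0.93 ± 0.071 SE, edgeR adjusted p = 1.84e-08). H2aj (H2afj, chr6:136808244-136810074), encoding H2A.J, measured 25.9, 30.6 and 32.1 CPM in CON and 20, 20 and 16 in KD. Again no KD library reached the CON range, and it was 1.58-fold lower (edgeR adjusted p = 2.97e-05).

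The macroH2A genes encode H2A variants with a large extra domain, known from repressed chromatin such as the inactive X chromosome. Macroh2a2 (H2afy2, chr10:61738665-61784147) measured 43.0, 41.1 and 42.7 CPM in CON and 25.5, 26.0 and 28.8 in KD. The groups were well apart at 1.58-fold lower (edgeR adjusted p = 4.31e-07). Macroh2a1 (H2afy, chr13:56073619-56136361) measured 153, 158 and 167 CPM in CON and 153, 148 and 142 in KD, groups that touch at their edges. Its log2 fold change was -0.11 ± 0.049 SE (edgeR adjusted p = 0.0617), and it turned with the scaling to 0.12 on library totals (adjusted p = 0.0401). It was called lower with RLE size factors (-0.12, adjusted p = 0.0391), without CON replicate 1 (-0.15, 0.0346), without KD replicate 1 (-0.14, 0.0309) and with the GC trend removed (-0.14, 0.00192), so its direction depends on the scaling. The ratio of Macroh2a1 to Macroh2a2 per kilobase was 1.14, 1.23 and 1.25 in CON and 1.92, 1.81 and 1.58 in KD. These do not overlap (exact permutation p = 0.1, adjusted 0.2), a ratio that does not depend on the scaling. Macroh2a1 shares 501 exonic bases with genes on the other strand, and the strand setting of the counting was not given in the sources used here.

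H3.3, the replacement H3 deposited at active genes and at telomeres, is made from a pair of genes. H3f3a (chr1:180800832-180813943) measured 506, 486 and 490 CPM in CON and 289, 289 and 294 in KD. H3f3b (chr11:116021912-116027962) measured 926, 893 and 926 CPM in CON and 556, 546 and 555 in KD. Both had KD libraries that almost coincided and lay far below CON, 1.70-fold lower for H3f3a (log2 fold change -0.76 ± 0.039 SE, edgeR adjusted p = 2.25e-10) and 1.66-fold lower for H3f3b (-0.73 ± 0.037 SE, adjusted p = 2.24e-10). The ratio of H3f3b to H3f3a per kilobase was 2.18 ± 0.0379 in CON and 2.24 ± 0.022 in KD (SD, n = 3; exact permutation p = 0.2, adjusted 0.267), so that a difference between them was not detected with these libraries. H3f3a overlaps genes on the other strand over 798 exonic bases.

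The 4 H3.3-related rows near the floor, the annotated pseudogenes H3f3a-ps1, H3f3a-ps2 and H3f3c and the antisense RNA H3f3aos, had CON means of 0.534, 0.410, 0.658 and 0.455 CPM. None was called, with edgeR adjusted p-values of 0.629, 0.582, 0.151 and 0.945. In H3f3a-ps2 and H3f3c, 68.91% and 56.73% of the 100-base windows also occur in another gene, so their few reads cannot be assigned with certainty. The members that did not pass the filter, H2ab3 (H2afb3) and the pseudogene H2afy3, had CON means of 0.0767 and 0.127 CPM.

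Linker histones bind the DNA that enters and leaves the nucleosome. H1f0 (chr15:79028450-79030504), encoding H1.0, a linker histone known from cells that stop dividing, measured 132, 132 and 135 CPM in CON and 57.8, 59.1 and 63.4 in KD. The KD libraries were close to each other and far under CON, 2.22-fold lower (log2 fold change -1.15 ± 0.051 SE, edgeR adjusted p = 3.93e-11). H1f10 (H1fx, chr6:87980421-87981637), encoding H1X, measured 54.4, 58.1 and 57.2 CPM in CON and 46.4, 40.8 and 26.2 in KD. The KD values were all lower but spread widely, with KD replicate 3 far below the other 2. H1f10 was 1.49-fold lower (log2 fold change -0.58 ± 0.159 SE, edgeR adjusted p = 0.0086), and -0.38 without KD replicate 3 (adjusted p = 8.79e-07). The call was lost on library totals (adjusted p = 0.0669) and with no filter on low counts (adjusted p = 0.18). The longest transcript of H1f10 is 71.32% GC, in the tenth of genes with most GC, and the part of the GC trend of that library in its value was not tested further; with the trend removed its log2 fold change was -0.64. The ratio of H1f10 to H1f0 per kilobase was 0.694, 0.744 and 0.715 in CON and 1.36, 1.16 and 0.699 in KD, which overlap (exact permutation p = 0.3, adjusted 0.3).

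**Figure D3:**
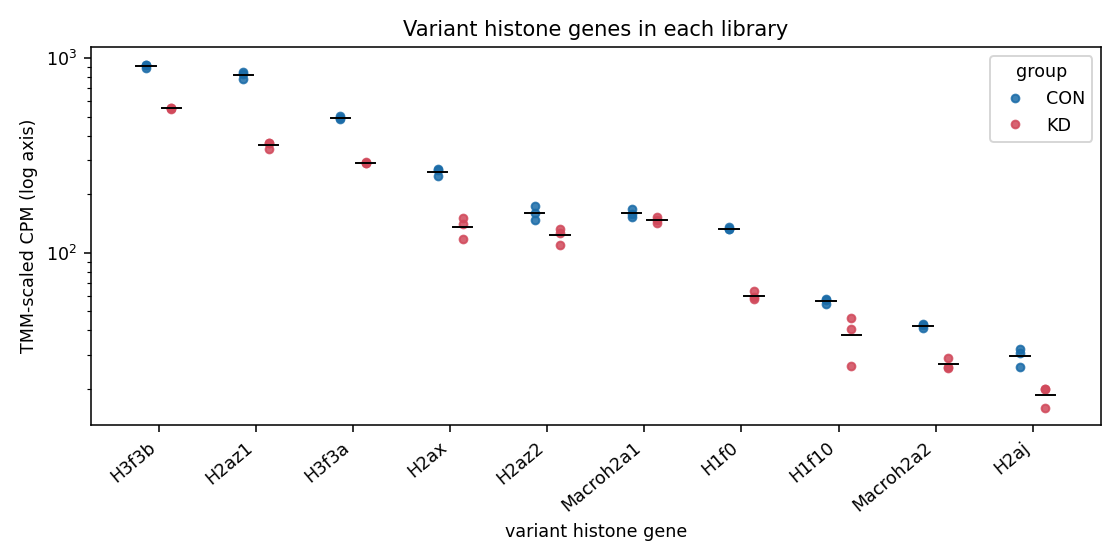
TMM-scaled CPM (log axis) of the 10 variant histone genes at 5 CPM or more, 1 point per library, CON in blue and KD in red, with black bars at group means. KD lies below CON for each gene, widely for H2az1 and H1f0, narrowly for H2az2 and at the edges for Macroh2a1, and the lowest H1f10 point at 26.2 CPM is KD replicate 3.

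Replication-dependent genes were near the floor of these libraries. Only 4 of the 61 averaged 1 CPM or more (H2bc4, H1f2, H4c9 and H1f1, named for their level after it was seen), and 26 passed the filter on low counts. Of the 26, 12 were called lower and 0 higher in KD, and 14 were not called. Their median log2 fold change was -0.98 beside 0.02 over all genes tested. Among the 7129 tested genes within the same range of mean level, 17.1% were lower and 27.4% higher, with a median of 0.13. The filter asks for about 0.264 CPM in 3 libraries, and 4 of the 26 passed through CON alone and 6 more with all CON but only 1 or 2 KD libraries over it. Passing in this way favours a lower KD value, so the count of 12 describes the genes that passed and supports nothing about all 61. With no filter, 12 of the 61 were lower and 0 higher, with a median of -0.87. Of all 31641 genes without the filter, 5600 were lower and 5946 higher, with a median of 0.03. The share of the 61 called lower was thus near that of all genes.

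The 35 members that did not pass had at most 9 counts per library on average, and they summed to 5.54, 4.31 and 4.12 CPM in CON and 2.60, 3.24 and 2.90 in KD. These sums do not overlap, with means of 4.66 ± 0.773 and 2.91 ± 0.324 (SD, n = 3). One by one, the KD mean was below the CON mean in 24 of the 35 and above it in 11. Over all 61 members it was below in 49 and above in 12. Of all 18019 genes tested, 8813 had a log2 fold change below 0, and no such share was made for genes below the filter. Members that share sequence are not separate observations, so these counts only describe the members. Leaving out H2bc4, the sum of the other members was 24.7, 22.6 and 22.5 CPM in CON and 12.9, 15.5 and 13.9 in KD, 1.65-fold lower.

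H2bc4, an H2B gene, measured 7.33, 7.97 and 8.42 CPM in CON and 6.70, 6.14 and 5.11 in KD. The groups lay close without overlapping, at 1.32-fold lower (log2 fold change -0.40 ± 0.126 SE, adjusted p = 0.0121 by edgeR). The call was lost on library totals (log2 fold change -0.17, adjusted p = 0.249) and without CON replicate 3 (-0.36, adjusted p = 0.0511).

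The 3 members with the largest fold among those called were H3c1, H2bc12 and H1f4, all of low level. H1f4 passed the filter through CON alone, and H2bc12 and H3c1 with only 1 or 2 KD libraries over it, so their folds and p-values are given as a description; with no filter the edgeR adjusted p-values were 0.0402 for H1f4, 2.58e-04 for H2bc12 and 0.022 for H3c1. H2bc12 (Hist1h2bk), another H2B gene, had 30, 38 and 34 reads in CON against 6, 16 and 15 in KD, or 0.880, 1.04 and 1.04 against 0.143, 0.373 and 0.410 CPM. Every KD value was far below any CON value, 3.21-fold lower (log2 fold change -1.68 ± 0.398 SE, edgeR adjusted p = 0.00174). Of its 100-base windows, 70.82% also occur in another gene, so the locus behind its reads is uncertain. H1f4 (Hist1h1e), encoding the linker histone H1.4, had 14, 16 and 12 reads in CON against 8, 4 and 4 in KD. The groups did not overlap and it was 3.04-fold lower (adjusted p = 0.0119 by edgeR), a call lost without KD replicate 2 (0.0598) and with DESeq2 (0.0579). H1f4 shares 496 exonic bases with Gm11398 and H2bc6 (Hist1h2be) on the same strand. Of its windows, 24.69% also occur in another gene, so the locus behind these reads is uncertain too. H3c1 (Hist1h3a), an H3 gene, had 10, 12 and 16 reads in CON against 0, 2 and 9 in KD. Its KD libraries ranged from none to nearly the CON level, and it was 3.91-fold lower (log2 fold change -1.97 ± 0.745 SE, edgeR adjusted p = 0.0312). Without KD replicate 3 the log2 fold change was -3.80, while leaving out any one of the other 5 libraries ended the call, as did library totals (0.0525) and DESeq2 (0.0791).

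Of the other 3 members at 1 CPM or more, H1f1 was called and H1f2 and H4c9 were not. H1f2 (Hist1h1c), encoding H1.2, measured 3.55, 3.35 and 2.58 CPM in CON and 1.95, 3.80 and 2.51 in KD. Its highest library was a KD library and the groups overlapped (log2 fold change -0.20 ± 0.226 SE, edgeR adjusted p = 0.472). H4c9 (Hist1h4i), an H4 gene, measured 1.23, 1.10 and 1.47 CPM in CON and 1.33, 0.934 and 1.53 in KD. These groups were interleaved, with equal means (log2 fold change -0.01 ± 0.263 SE, adjusted p = 0.987). H1f1 (Hist1h1a), encoding H1.1, measured 1.44, 1.43 and 1.35 CPM in CON and 0.763, 0.887 and 0.546 in KD. All of its KD values were below CON, 1.91-fold lower (edgeR adjusted p = 0.00828).

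By protein family, members called lower were counted among those that passed. They were 2 of 4 H1, 1 of 2 H2A, 2 of 6 H2B, 5 of 7 H3 and 2 of 7 H4 genes. Of all genes tested 30.8% were lower, and 17.1% of those within the same range of mean level. Some of these members passed the filter mainly through CON, as given above, so the counts do not rank the families. The families entered with 6, 17, 16, 10 and 12 members, so most H2A and H2B genes had too few reads to be tested. By sequence, 9 of the 20 tested members with a stem-loop were lower and 3 of the 6 in which none was found. In some of the latter the annotated transcript may stop short of the element, as in H3c10 and H3c11 at 411 bases each. No test of a difference between families or between ends was made. Annotated transcripts of the copies share sequence. In the median replication-dependent member 31.82% of the 100-base windows also occur in another gene, against 5.61% in the median variant. Of the 61, 21 had over 50%, so values of single copies are uncertain. Both strands were searched, so a gene on the other strand of the same locus counts as another gene here. In H1f0, 3.27% of windows occurred in another gene and 0.0% in another member.

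**Figure D4:**
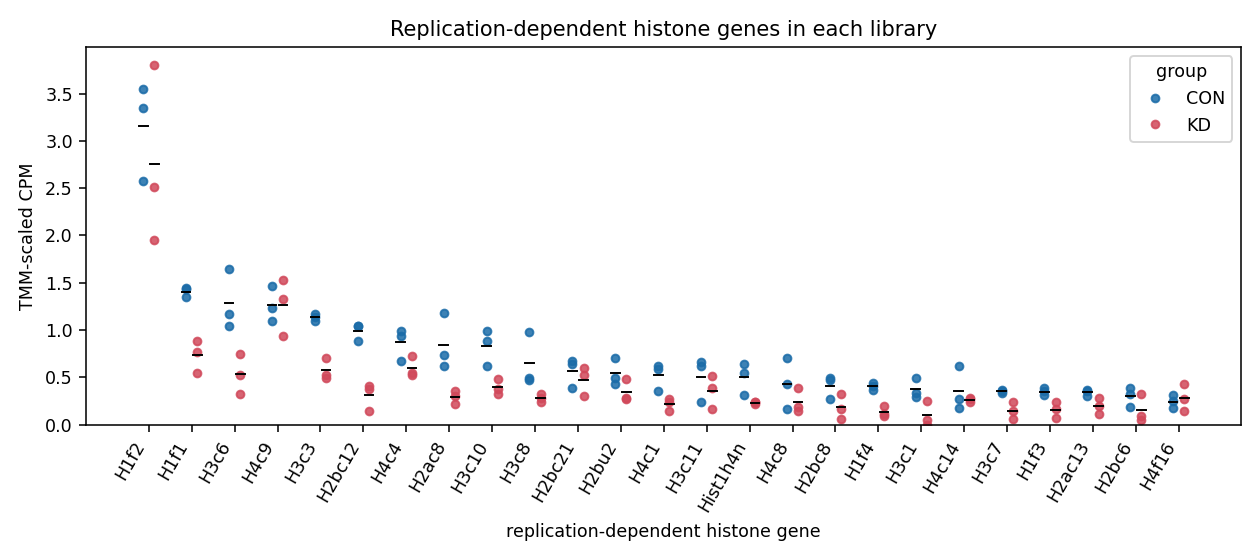
TMM-scaled CPM of 25 of the 26 tested replication-dependent genes, 1 point per library, CON in blue and KD in red, with black bars at group means; H2bc4, at 5.11 to 8.42 CPM, is left out for scale. H1f2 and H4c9 overlap between groups, while H1f1, H3c3 and H2bc12 do not.

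**Figure D5:**
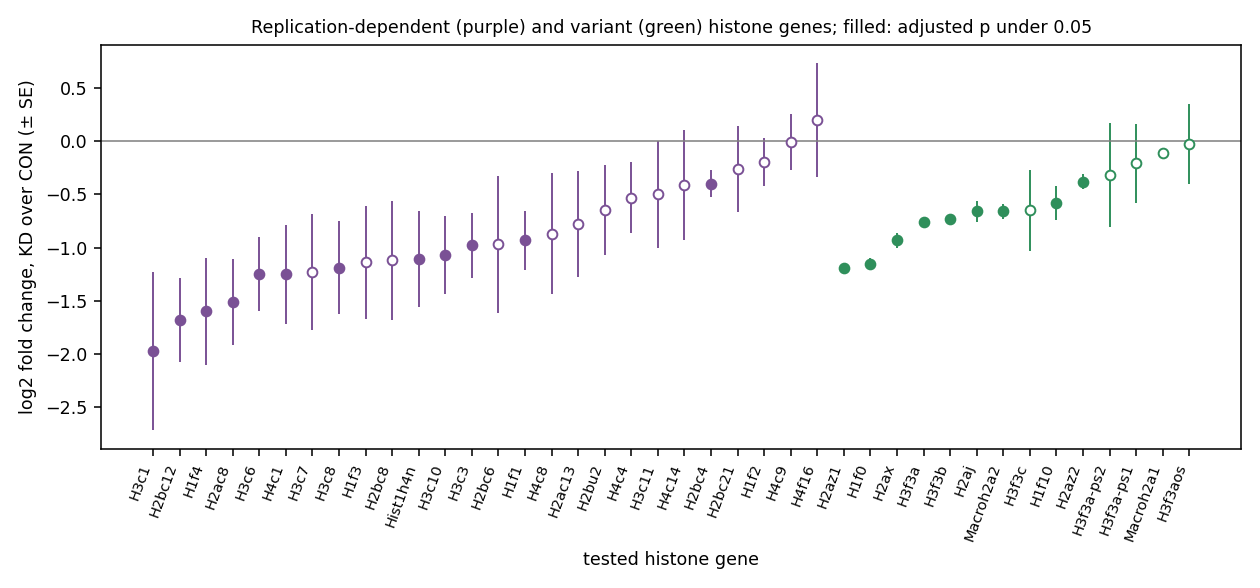
Log2 fold change of KD over CON with its SE, derived from edgeR's F statistic, for each tested member. Replication-dependent genes are in purple and variants in green, filled where the adjusted p was under 0.05. Filled points all lie below 0, from -1.97 to -0.38, and the error bars of the replication-dependent genes are much longer than those of the abundant variants.

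Beside the histone genes, factors that process replication-dependent messages were mixed. Of 27 in the list, 11 were lower and 6 higher in KD, with a median log2 fold change of -0.11. Among all genes tested, 30.8% were lower and 32.2% higher, 63% in either direction. On library totals the balance turned to 4 lower and 13 higher. All 18019 genes turned the same way, to 3535 lower and 8275 higher. Slbp, the stem-loop binding protein, measured 79.1, 75.7 and 82.8 CPM in CON and 51.1, 53.1 and 59.0 in KD. Its groups were far apart and it was lower under both scalings, 1.46-fold in the TMM fit (edgeR adjusted p = 1.8e-06) and with a log2 fold change of -0.31 on library totals (adjusted p = 4.17e-04). Lsm10 and Lsm11, the Sm-like proteins particular to the U7 particle, were not called at log2 fold changes of 0.02 and -0.02 (edgeR adjusted p = 0.863 and 0.792), and both were higher on library totals (0.25 and 0.20). Npat, the coactivator of histone gene transcription, was not called (-0.11, adjusted p = 0.2; 0.12 on library totals). Casp8ap2, the FLASH protein of the cleavage machinery, was 1.23-fold lower (adjusted p = 0.00205), a call lost on library totals (-0.07, adjusted p = 0.396).

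The calls with the smallest p among the other processing genes were, downward, the Sm proteins Snrpe (1.52-fold) and Snrpb (1.46-fold) and the cleavage factor Cpsf2 (1.32-fold). Upward they were Ncbp2, a cap-binding protein (1.55-fold), Tut7, a uridylyltransferase that acts on RNA ends (1.53-fold), Srrt, the ARS2 partner of the cap-binding complex (1.26-fold), and the kinase Cdk9 (1.21-fold). These 7 kept their direction and their call on library totals.

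Histone chaperones and deposition factors leaned lower, with 17 of 30 lower and 3 higher and a median log2 fold change of -0.23. Of all genes tested, 30.8% were lower and 32.2% higher. On library totals 14 of the 30 were lower and 11 higher, beside 3535 lower and 8275 higher of all 18019 genes. Mms22l, which acts with Tonsl on newly made H3-H4 at forks, was 2.22-fold lower, and Mcm2, a helicase subunit that also binds H3-H4, was 2.18-fold lower. Anp32e, which removes H2A.Z from chromatin, measured 166, 161 and 157 CPM in CON and 79.1, 83.0 and 90.9 in KD, groups far apart and 1.91-fold lower (edgeR adjusted p = 9.78e-10). Chaf1b, a subunit of the CAF-1 complex that loads H3.1, was 1.86-fold lower. The 3 higher genes were Znhit1, a subunit of the SRCAP complex that loads H2A.Z (1.37-fold), Cabin1 of the HIRA complex for H3.3 (1.34-fold) and Hat1, which acetylates new H4 (1.23-fold).

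S phase genes moved with the histone sums. Of 28, 25 were lower and 1 higher, with a median log2 fold change of -0.62, where 30.8% of all genes tested were lower. On library totals 21 were lower and 3 higher, beside 3535 lower and 8275 higher of all 18019 genes. The calls with the smallest p were the helicase subunits Mcm5 (3.84-fold lower), Mcm2, Mcm6 (1.96-fold) and Mcm4 (1.99-fold); the gene that rose was Ccne2, cyclin E2 (1.42-fold). Whether the lower histone reads go with fewer cells in S phase was not tested.

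Of the histone genes outside the naming rule, 4 were in the table and 2 had enough reads. Cenpa, the centromeric H3, measured 125, 126 and 128 CPM in CON and 107, 99.2 and 98.2 in KD, without overlap and 1.25-fold lower (adjusted p = 3.43e-05 by edgeR), a call lost on library totals (log2 fold change -0.09, adjusted p = 0.117). H2bfm, an H2B-like gene, measured 1.06, 1.10 and 1.04 CPM in CON and 1.86, 2.15 and 2.08 in KD. It ran the other way, 1.90-fold higher in the fit (edgeR adjusted p = 0.0016), and every KD library lay above every CON library.

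All 10 stem cell markers were present and called lower in KD, where 30.8% of all genes were, Pou5f1 by 3.19-fold and Nanog by 3.02-fold. Of 10 neuron markers 4 were higher and 3 lower, and of 10 primitive endoderm markers 2 were higher and 4 lower, shares near the 63% of all genes called in either direction. Of the 4 fibroblast markers with enough reads 3 were higher and 1 lower. The part of the lower stem cell markers in the histone values was not tested.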

How the data were processed

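RNA sequencing libraries from 3 CON and 3 KD samples were used. The authors' deposited table holds raw counts per gene (per the file headers), FPKM that the authors scaled from them (used here only with the counts to recover each gene's length), and the authors' deposited log2 fold change and adjusted p-value, which were not used. Per the submitters' processing notes, the build was mm10 and the tools included featureCounts, STAR 2.5.3a and FastQC 0.11.9; annotation, strand setting and multi-mapping were not given in the sources used here. Of 31641 identifiers, 99.6% were found in GENCODE M21. Between 70 and 71.67% of counts from 1 to 20 were even, so low counts may stand for fewer fragments than their value.

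Counts were fitted in R 4.3.3 with edgeR 4.0.16 (filterByExpr, TMM factors 0.9223 to 1.0841, robust quasi-likelihood F-test on the group, Benjamini-Hochberg over 18019 genes, threshold 0.05), after a test on simulated data. DESeq2 1.42.0 and other scalings, filters and left-out libraries were alternatives. Replicate numbers did not pair the libraries. Each SE was derived as the absolute log2 fold change divided by the square root of the F statistic. Ratios were tested by exact permutation, two-sided.

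The members and lists were chosen with earlier results of these data known. Named were every tested variant, tested replication-dependent members at 5 CPM or more, the 3 largest falls among those called without overlap, and in each list the 4 called genes of lowest p on either side, plus Slbp, Npat, Casp8ap2, Lsm10, Lsm11 and Cenpa. The listed Hils1, H2al1, H2al2a, Dcn, Lum and Dcx were not matched by symbol and were not used here. H1f1, H1f2 and H4c9 were added for their level.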

Additional observations from a re-analysis of the deposited data

How the results depend on the processing

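The 12 replication-dependent genes called lower became 6 on library totals, where the lower calls of all 18019 genes went from 5543 to 3535. They became 3 of 5 tested with at least 1 CPM in 3 libraries. They became 7 of 12 tested on counts divided by 2 and 7 of 52 tested by DESeq2. Fewer genes were tested under the 1 CPM filter and on divided counts. By DESeq2, 5360 of all 23053 genes tested were lower, a larger share than 7 of 52. The DESeq2 calls thus showed no excess of falls over the share of all genes. No share for genes of the same low level was made for DESeq2, so an excess over such genes was not tested. In the edgeR fit 17.1% of tested genes at that level were lower, against 30.8% of all. The median log2 fold change of the replication-dependent genes by DESeq2 was -0.92, beside 0.01 over all genes tested. Leaving out each library gave 8 to 12 called lower. The summed log2 change went from -0.63 to -0.41 (replication-dependent) and from -0.81 to -0.58 (variant) on library totals. Variant calls were 9 to 10 with a library left out. Directions turned on library totals for Macroh2a1 (0.12), H3f3a-ps1 (0.01), H3f3aos (0.19), Npat (0.12) and Lsm11 (0.20), for H3f3a-ps2 without CON replicate 2 (0.0; -0.67 to 0.0 over the left-out libraries), and for Lsm10 without CON replicate 1 (-0.03), CON replicate 2 (-0.0) or KD replicate 1 (-0.0; -0.03 to 0.07 over the left-out libraries) and with the GC trend removed (-0.08; this setting was added once the data had been seen); the cause was not tested. Of all values of named genes under alternatives, 570 kept direction and call, 17 lost the call, 6 gained it and 10 turned. Same-numbered libraries did not deviate together (correlations -0.061, 0.015 and -0.039), and with the replicate number as a block 11 replication-dependent, 9 variant, 17 processing, 18 chaperone and 25 S phase genes were called, against 12, 9, 17, 20 and 26. One count was worth up to 0.0307 CPM, and 35 of the 61 replication-dependent genes had too few reads to be tested.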
